A study of Homo sapiens with 14 samples.

Results

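LNCaP cells, an established line of androgen-responsive human prostate cancer cells, were transfected with 20 nM of a non-targeting pool of small interfering RNAs (siRNAs), and their total RNA was profiled on the Human Gene 2.0 ST array of Affymetrix. The comparison described here is that of control siRNA cells collected 72 h after a single transfection (2 arrays) with control siRNA cells collected 24 h after it (2 arrays). These 4 of the 14 arrays were taken by their titles, a rule that uses no measured value. The other groups of 2 arrays, used only to set values side by side, are control siRNA cells at 144 h, which had been split and transfected a second time at 72 h, cells given an siRNA pool against the chromatin insulator protein CTCF at 24, 72 and 144 h, and untransfected cells. All groups are the same line. The sample descriptions number the 24 h arrays 3 and 4 and the 72 h, 144 h and untransfected arrays 1 and 2, so the time after transfection and whatever these numbers mark cannot be told apart, in the control siRNA and in the CTCF siRNA arrays alike. No label states when the untransfected cells were collected, but the codes in their descriptions open with 72, like the codes of the 72 h arrays.

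Cells that carry a control siRNA pass through the handling of a knockdown experiment without loss of a target: they take up lipid and double-stranded RNA and then go on dividing in culture. Proliferating cells express genes of DNA replication, driven by E2F factors as they enter S phase, and genes of G2 and mitosis, held in check outside those phases by the DREAM complex. Shortage of amino acids or misfolded protein in the endoplasmic reticulum halts general translation through phosphorylated eIF2 and raises the transcription factor ATF4, the branch called the integrated stress response. Immediate early genes such as FOS, JUN and EGR1 respond within minutes to serum, growth factors and stress. Each of these sets was described from a gene list, and all levels below are the deposited log2 values, on which a difference of 1 is a doubling.

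At 72 h, 14 of 16098 probe sets with a gene symbol (0.0870%) differed from 24 h at an adjusted p under 0.05 by limma. Of these, 9 were higher at 72 h (0.0559%) and 5 were lower (0.0311%), and 7 of the 14 differed by at least 2-fold. The stress and immediate early factors ATF3 and JUN fell, together with ZBTB10, GEM and KRT80, while the surface glycoprotein CD24, the stress cytokine GDF15, the sestrin SESN3 and 6 others rose. All 14 had both 72 h arrays on the same side of both 24 h arrays, which was also so for 21.9% of all probe sets in the upward and 22.0% in the downward direction. Being called had nearly fixed this in advance, so these shares are not a like background for the 14. At an unadjusted p under 0.05 the count was 2019 (12.5%), with 1033 higher (6.42%) and 986 lower (6.12%), and the median difference over all genes was -0.004. A 2-fold or larger difference was found for 34 probe sets (0.211%). With a prior variance that follows the level, 116 probe sets passed (0.721%, 75 or 0.466% higher and 41 or 0.255% lower), and with dim probe sets left out 166 of 7396 (2.24%, 94 or 1.27% higher and 72 or 0.973% lower). These p-values measure the spread between arrays, since the design has 2 arrays a group. When any one of the 4 arrays, or any CTCF siRNA array of 24 or 72 h, was left out, 0 probe sets passed, and 2 passed without any one of the 144 h arrays.

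The 72 h replicates were less alike than the 24 h replicates. Their correlation over the tested probe sets was 0.9923, against 0.99377 at 24 h, and 900 probe sets had 72 h replicates at least 0.5 apart, against 660 at 24 h. On the first principal component, which held 24.7% of the variance, the 72 h arrays lay at -3.47 (replicate 1) and -14.4 (replicate 2), the 24 h arrays at 8.78 and 7.92, and the untransfected arrays at -26.5 and -26.1. Replicate 2 of 72 h thus stood apart from replicate 1 on the side of the untransfected arrays, and the list medians below are given with and without it. CTCF itself had levels of 8.98 and 9.02 at 72 h, against 9.001 and 9.114 at 24 h, a difference of -0.06 ± 0.18 (SE). Its levels in the CTCF siRNA arrays ran between 6.73 and 7.46, so the control siRNA labels matched the targeted gene in all 4 arrays. Of 12 prostate luminal markers 6 were measured, among them KLK3 at 8.46 and 8.09 at 72 h, against 8.15 and 8.20 at 24 h, and FOLH1 at 10.69 and 10.53, against 10.40 and 10.33. The mean level of this list was 8.20 and 8.30 at 72 h and 8.11 and 8.18 at 24 h. The mean levels of the measured basal, fibroblast, immune, endothelial and neuroendocrine markers (3 or 4 genes each) lay between 2.76 and 4.02 in all 4 arrays, and none of the 6 marker lists held a gene past the test. These means hide brighter members. The fibroblast marker VIM had 6.16 and 6.11 at 72 h, against 5.96 and 5.98 at 24 h. Of the 3 measured immune markers, 1 had a mean level of 5 or more.

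Of the 5 genes that fell, ATF3 and JUN belong to the stress and early response. ATF3, a bZIP factor induced by ATF4 and by immediate early signals, had 5.47 and 5.97 at 72 h, against 7.16 and 7.28 at 24 h, a difference of -1.50 ± 0.20 (SE, adjusted p = 0.0434, limma). JUN, the AP-1 subunit, had 7.45 and 7.42 at 72 h, against 8.51 and 8.83 at 24 h (-1.24 ± 0.17, adjusted p = 0.0434, limma). The 72 h levels of both genes lay well apart from those of 24 h, and in the CTCF siRNA arrays the differences were -1.99 and -1.24. Their promoters are shown because both hold the same 8 letters, TGACATCA, a cyclic AMP response element-like site in the JUN promoter to which ATF and JUN proteins are known to bind. The sequences, from RefSeq on GRCh38.p14, are written 5′ to 3′ on the strand of the gene with that site in capitals. The ATF3 stretch is chr1:212565259-212565316 on the plus strand, with the site beginning 123 bases before the transcription start, and the JUN stretch is chr1:58784082-58784139 on the minus strand, with the site beginning 67 bases before it.
ATF3: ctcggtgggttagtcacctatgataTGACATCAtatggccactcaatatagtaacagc
JUN: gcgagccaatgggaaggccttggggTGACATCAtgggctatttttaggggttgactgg
Over all RefSeq promoter windows, 250 bases before to 50 after the start, 2.61% held this site on either strand. The motif was chosen after the values of ATF3 and JUN had been seen, and a match is a description of the letters only.

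The other 3 genes that fell were GEM, ZBTB10 and KRT80. GEM, a small GTPase that restrains voltage-gated calcium channels, had 3.18 and 3.10 at 72 h, against 4.31 and 4.49 at 24 h (-1.26 ± 0.15). ZBTB10, a zinc finger transcriptional repressor, had 6.89 and 6.95 at 72 h, against 7.998 and 7.914 at 24 h. Its difference of -1.04 ± 0.10 had the smallest adjusted p of all, 0.0216 by limma. KRT80, an epithelial keratin, had 3.38 and 3.76 at 72 h, against 4.71 and 4.78 at 24 h (-1.18 ± 0.17). GEM and KRT80 had mean levels under 5, the limit used to leave out dim probe sets in an alternative fit, and the other 3 genes that fell had not.

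Among the genes that rose, CD24, a glycosylated surface protein of epithelial cells, had the largest difference. It had 7.73 and 7.63 at 72 h, against 6.46 and 6.48 at 24 h (1.21 ± 0.16, adjusted p = 0.0434, limma). CAMK1D, a calcium and calmodulin-dependent kinase, had 6.97 and 7.22 at 72 h, against 6.19 and 5.98 at 24 h (1.01 ± 0.14). SLIT1, a secreted ligand of ROBO receptors, had 6.10 and 6.20, against 5.12 and 5.26 (0.96 ± 0.14). In each of these 3 genes the replicates of a time lay far closer to each other than to those of the other time.

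GDF15, a secreted cytokine of the TGF-beta family that is raised by cell stress, was among the brightest of the 14. It had 10.06 and 10.37 at 72 h, against 9.24 and 9.39 at 24 h (0.90 ± 0.12, adjusted p = 0.0434, limma). SESN3, a sestrin that restrains mTORC1 and a known target of FOXO factors, had 10.72 in both 72 h arrays, against 9.74 and 10.04 at 24 h (0.83 ± 0.12). GRB10, an adaptor that damps insulin and IGF receptor signalling, had 8.08 and 8.19, against 7.24 and 7.43 (0.79 ± 0.11). SESN3 and GRB10 both act to limit growth factor and nutrient signalling. TMEM116, a transmembrane protein, had 7.62 and 7.51 at 72 h, against 6.72 and 6.58 at 24 h (0.91 ± 0.12). GOLPH3L, a Golgi protein related to GOLPH3, had 8.48 and 8.57, against 7.70 and 7.78 (0.78 ± 0.11).

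The remaining probe set belongs to the microRNA gene MIR7-2, which the naming rule counts but does not name and which is described after its values were seen. It had 2.66 and 2.47 at 72 h, against 1.82 and 1.61 at 24 h (0.86 ± 0.10, adjusted p = 0.0434, limma), among the dimmest levels on the array, and a second MIR7-2 probe set had a difference of -0.36 ± 0.21. In the CTCF siRNA arrays the first probe set had a difference of 0.17 ± 0.10. The 2 probe sets disagree in sign, and these arrays are not made to measure mature microRNAs. The RefSeq entry of this locus gave hsa-miR-7-2-3p (GRCh38.p14 chr15:88611896-88611917, plus strand), a mature product that need not be the main one of the gene. It is shown with its seed, bases 2 to 8, in capitals.
hsa-miR-7-2-3p: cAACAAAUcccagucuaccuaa

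**Figure D1:**
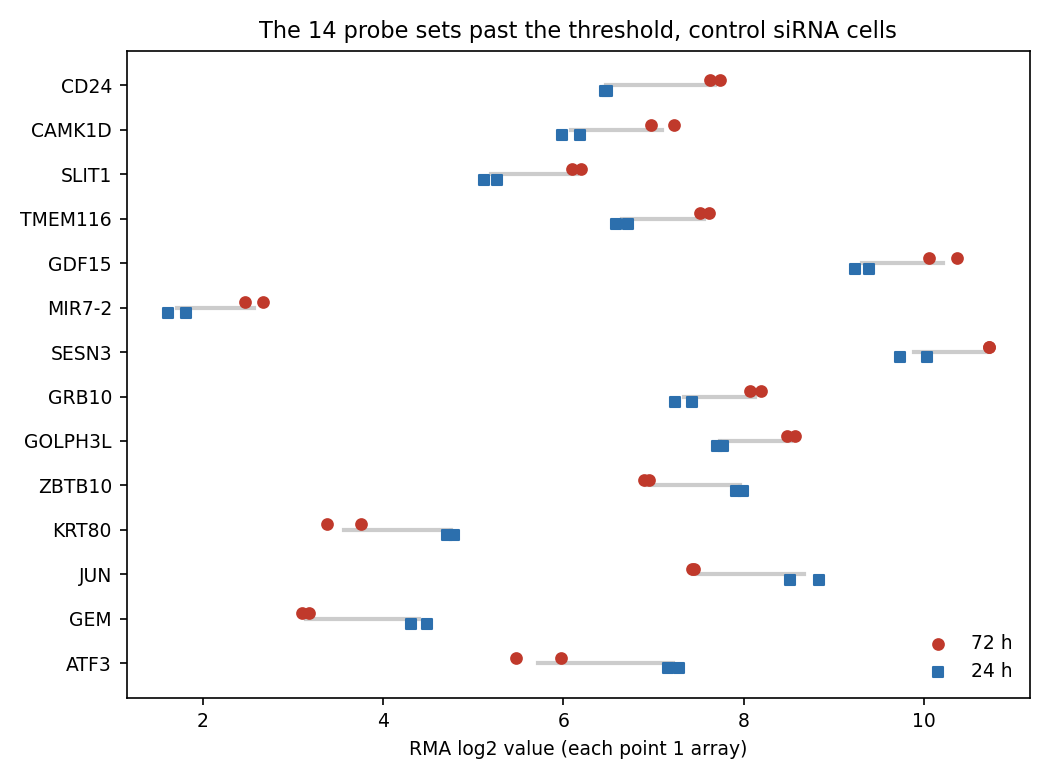
Levels (RMA log2, horizontal axis) of the 14 probe sets past the test, with 1 point per array, 72 h as circles and 24 h as squares, joined by a line between the group means. The 9 upper probe sets have both 72 h arrays to the right of both 24 h arrays, and the 5 lower ones, from ZBTB10 to ATF3, have them to the left.

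Replication genes were lower at 72 h as a group. All 31 measured genes of the 54 in the S phase and DNA replication list had a lower mean at 72 h than at 24 h, against 51.2% of all probe sets, although 0 passed the test by limma. Their differences ran from -1.04 to -0.21 with a median of -0.56, and 25 had an unadjusted p under 0.05 in that direction (background 6.12%). In 29 of the 31 both 72 h arrays lay below both 24 h arrays (background 22.0%). The lowest adjusted p of the list was 0.0747, that of FEN1, the flap endonuclease that trims Okazaki fragments, with 6.81 and 6.52 at 72 h and 7.40 and 7.24 at 24 h (-0.65 ± 0.12). The largest difference was that of GINS4, a subunit of the replicative helicase, with 5.78 and 4.80 at 72 h and 6.35 and 6.31 at 24 h (-1.04 ± 0.25). A second, dim GINS4 probe set had a difference of -0.12. In bulk RNA, fewer cells in S phase and less of these transcripts per cell cannot be told apart. As in GINS4, replicate 2 of 72 h lay below replicate 1 in 28 of the 31 genes. Replicate 2 minus replicate 1 had a median of -0.34 here and of -0.47 between the CTCF siRNA replicates of 72 h.

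Further genes of the S phase list followed the same order of arrays. The helicase subunit MCM5 had 6.78 and 6.55 at 72 h, against 7.29 and 7.30 at 24 h (-0.63 ± 0.12). E2F8, a repressive E2F that is itself made in S phase, had 6.69 and 6.35, against 7.22 and 7.21 (-0.69 ± 0.13). DTL, the substrate receptor of the CRL4 ubiquitin ligase that degrades CDT1, had 8.67 and 8.28, against 9.14 and 9.12 (-0.66 ± 0.14), and UHRF1, which carries DNA methylation through replication, had 6.35 and 5.80, against 6.87 and 6.68 (-0.70 ± 0.14). None of these 4 passed the test over all probe sets (adjusted p 0.0978 to 0.145 by limma). With a prior variance that follows the level, FEN1, MCM5, E2F8, DTL and UHRF1 passed, 5 of the 31, against 0.255% of all probe sets that were lower and passed. Without replicate 2 of 72 h the list median was -0.38 and all 31 differences stayed below 0, and without each of the other 3 arrays the median lay between -0.70 and -0.42.

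The G2 and mitosis list showed the same direction in all of its 41 measured genes of 52, with a median of -0.44 (range -0.70 to -0.10). Again 0 passed by limma, while MYBL2 and CDC20 passed with a prior variance that follows the level (background 0.255%). An unadjusted p under 0.05 was found for 20 genes (background 6.12%), and in 36 both 72 h arrays lay below both 24 h arrays (background 22.0%). MYBL2, the B-MYB factor that opens the mitotic programme, had 7.54 and 7.57 at 72 h, against 8.18 and 8.25 at 24 h (-0.66 ± 0.13, adjusted p = 0.0978, limma), with close replicates at both times. CDC20, the activator of the anaphase promoting complex, had 8.22 and 8.12, against 8.82 and 8.80 (-0.65 ± 0.15), and the mitotic kinase PLK1 had 8.92 and 8.96, against 9.52 and 9.70 (-0.67 ± 0.17). In these 3 genes the 2 replicates of 72 h were close. In others they were not: CDK1, the mitotic cyclin-dependent kinase, had 9.16 and 8.25 at 72 h, against 9.29 and 9.42 at 24 h, and MKI67, the proliferation marker Ki-67, had 9.17 and 8.44, against 9.27 and 9.42. Over the whole list, replicate 2 of 72 h lay below replicate 1 in 37 of the 41 genes. Replicate 2 minus replicate 1 had a median of -0.39. RACGAP1, a component of the central spindle, had the largest difference of the list, -0.70 ± 0.23. Without replicate 2 of 72 h the median was -0.32 with all 41 differences still below 0, and without each of the other 3 arrays it lay between -0.69 and -0.25.

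**Figure D2:**
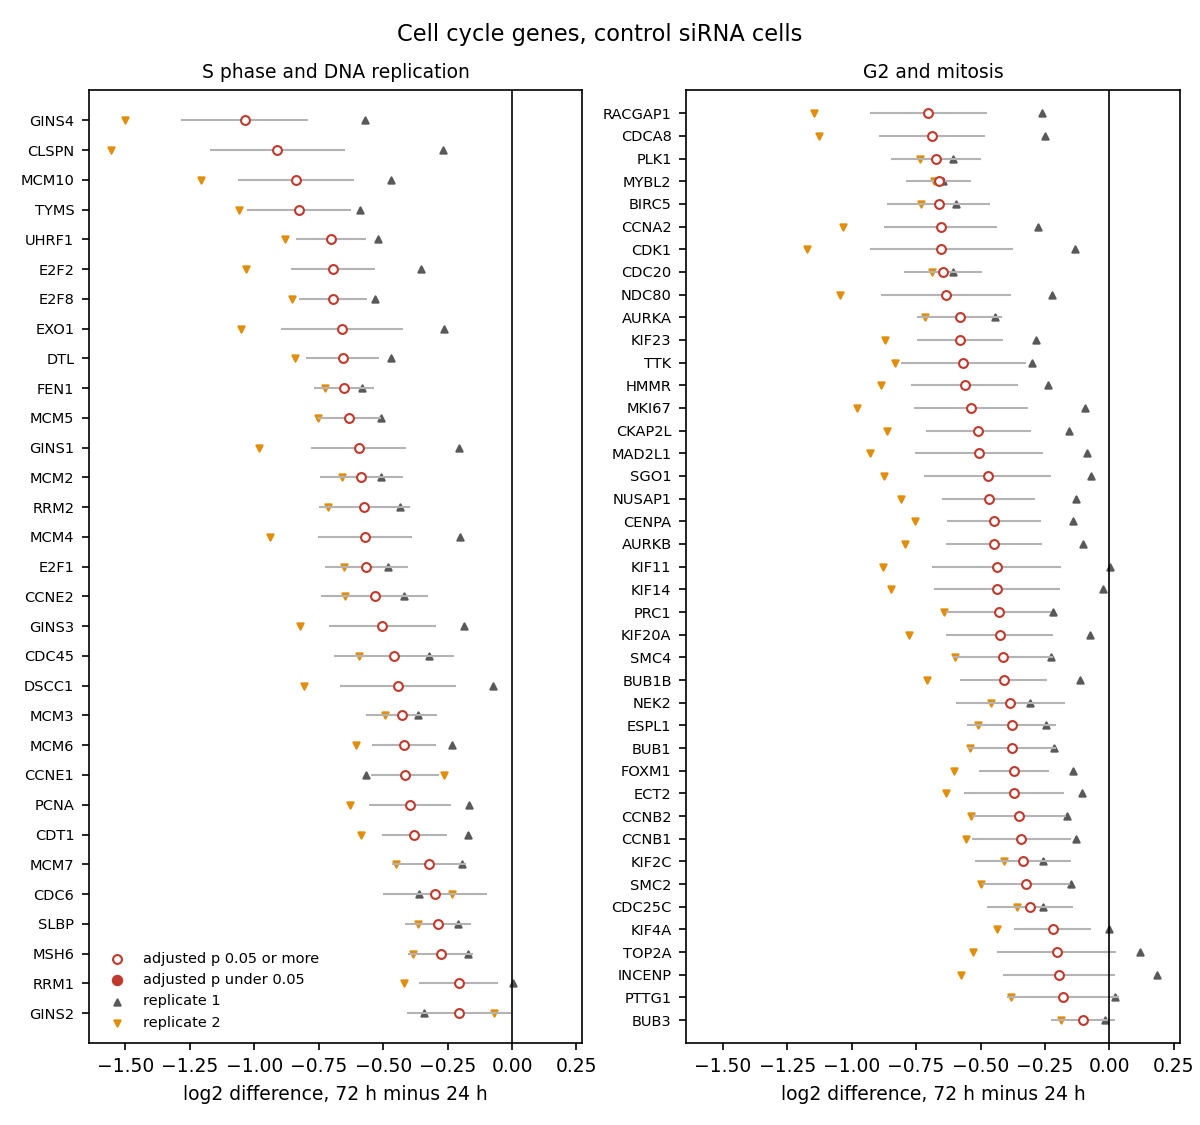
Difference of each S phase gene (left) and each G2 and mitosis gene (right) between 72 h and 24 h (log2, horizontal axis). Circles with bars are the fitted difference ± SE, open where the adjusted p was 0.05 or more, and triangles are the differences within title replicate 1 (up) and 2 (down). All 72 fitted differences lie below 0, and most replicate 2 values lie further from 0 than those of replicate 1.

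E2F sites were more frequent in the promoters of the S phase list and cell cycle homology regions in those of the G2 and mitosis list, and 2 promoters of each are shown to let the letters be seen. Windows were found for 25 of the 31 S phase genes (37 windows) and 35 of the 41 G2 and mitosis genes (44 windows). An E2F site, TTTCCCGC, TTTGGCGC or TTTCGCGC on either strand, was in 19 of the 37 S phase windows (51.4%), in 4 of the 44 G2 and mitosis windows (9.09%) and in 2.74% of all windows. The cell cycle homology region, TTTGAA or TTCGAA, known as the site at which the DREAM complex holds mitotic genes, was in 30 of the 44 mitotic windows (68.2%), in 2 of the 37 S phase windows (5.41%) and in 16.4% of all windows, and the CCAAT box, the site of NF-Y, was in 33 of them (75.0%) and in 22 of the 37 S phase windows (59.5%), against 34.6% of all. The stretches below run 5′ to 3′ on the strand of the gene, from RefSeq on GRCh38.p14, with the E2F site and CCAAT boxes in capitals for DTL (chr1:212035692-212035747, plus strand) and UHRF1 (chr19:4909390-4909500, plus strand), and the cell cycle homology region and CCAAT boxes in capitals for PLK1 (chr16:23678791-23678888, plus strand) and CDC20 (chr1:43358778-43358955, plus strand). No marked site overlaps another.
DTL: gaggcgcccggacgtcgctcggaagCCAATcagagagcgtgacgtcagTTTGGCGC
UHRF1: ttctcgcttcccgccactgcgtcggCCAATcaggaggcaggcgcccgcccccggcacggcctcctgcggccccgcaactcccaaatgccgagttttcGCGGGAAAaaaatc
PLK1: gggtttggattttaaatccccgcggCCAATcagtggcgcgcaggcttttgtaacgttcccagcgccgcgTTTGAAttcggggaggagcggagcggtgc
CDC20: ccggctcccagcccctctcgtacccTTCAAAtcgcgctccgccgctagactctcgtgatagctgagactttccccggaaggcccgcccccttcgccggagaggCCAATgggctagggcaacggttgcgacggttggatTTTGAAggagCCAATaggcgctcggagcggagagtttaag
In UHRF1 the E2F site lies on the opposite strand and reads GCGGGAAA, and the upstream CDC20 match reads TTCAAA for the same reason. These are matches of letters, and binding was not measured.

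The G1 regulators had differences of both signs. Of 12 genes in a list of G1 cyclins, cyclin-dependent kinase inhibitors and pocket proteins, 0 passed. CCNG2, an unconventional cyclin that is raised in cells leaving the cycle, had 6.73 and 6.92 at 72 h, against 5.54 and 5.82 at 24 h, a difference of 1.14 ± 0.20 with an adjusted p of 0.0710 by limma. Both of its 72 h arrays lay above both 24 h arrays, as in 21.9% of all probe sets. CDK2, the kinase of S phase entry, had 7.33 and 7.13, against 7.63 and 7.81 (-0.49), whereas CCND1 and CDK4, which act earlier in G1, had differences of -0.08 and -0.01. In the MYC and ribosome biogenesis list (23 genes, 0 past the test) MYC had a difference of 0.14 and 16 genes lay below 0, led by the nucleolar protein LYAR at -0.74 ± 0.17, while MXI1, a repressor that competes with MYC for MAX, lay at 0.58 (adjusted p = 0.0758, limma). Among 14 p53 targets 12 lay below 0 and 0 passed, AEN, an apoptosis-enhancing nuclease, being lowest at -0.61 ± 0.11.

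The integrated stress response list pointed both ways, with GDF15 rising and ATF3 falling. Of its 30 measured genes of 37, 26 had a higher mean at 72 h (background 48.8%) and 4 a lower one, with a median of 0.31, and 17 higher genes had an unadjusted p under 0.05 (background 6.42%). In 20 genes both 72 h arrays lay above both 24 h arrays (background 21.9%). After ATF3 and GDF15, the largest differences were those of the enzymes CTH, PCK2 and CBS. CTH, which makes cysteine from cystathionine, had 5.93 and 6.46 at 72 h, against 5.28 and 5.34 at 24 h (0.89 ± 0.21), PCK2, the mitochondrial phosphoenolpyruvate carboxykinase, had 6.31 and 6.86, against 5.70 and 5.86 (0.81 ± 0.16), and CBS, cystathionine beta-synthase, had 8.71 and 8.96, against 8.14 and 8.38 (0.58 ± 0.12). Their adjusted p values were 0.111 to 0.156 by limma, short of the threshold. ATF4 had 8.59 and 8.93 at 72 h, against 8.27 and 8.48 at 24 h (0.39 ± 0.13). ASNS, asparagine synthetase, had 8.12 and 8.45, against 8.02 and 7.89 (0.33 ± 0.13). In all 30 genes replicate 2 of 72 h was above replicate 1, by a median of 0.47, against 0.08 between the 24 h replicates.

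For several stress genes the 72 h arrays lay on opposite sides of the 24 h arrays. DDIT3, the pro-apoptotic factor CHOP, had 4.85 and 6.67 at 72 h, against 5.99 and 5.71 at 24 h, SESN2 had 6.44 and 7.80, against 7.40 and 7.27, and TRIB3, a pseudokinase induced by ATF4 and CHOP, had 6.07 and 7.40, against 6.23 and 6.18. In all 3 genes replicate 1 was below both 24 h arrays and replicate 2 above both. Without replicate 2 the list median was 0.17, with 20 genes above 0 and 10 below, and without each of the other 3 arrays it lay between 0.27 and 0.54. An ATF4 site, TTGCATCA or TTTCATCA on either strand, was in 9 of the 39 windows of this list (23.1%) and in 1.96% of all windows, with the ASNS promoter as the known example. Its stretch is chr7:97872444-97872501, minus strand, of GRCh38.p14 from RefSeq, with the site in capitals as it reads on the strand of the gene, the complement of TTTCATCA.
ASNS: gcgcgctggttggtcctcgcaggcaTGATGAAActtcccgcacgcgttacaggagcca

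Among unfolded protein response genes, the chaperones and sensors of the endoplasmic reticulum, 12 of 25 were measured and 0 passed, also at an unadjusted p under 0.05. The median was 0.24, but it turned to -0.18 without replicate 2 of 72 h. In all 12 genes that replicate was above replicate 1, by a median of 0.60. SEL1L, an adaptor of degradation at the endoplasmic reticulum, had 7.99 and 9.52 at 72 h, against 8.25 and 8.21 at 24 h. HYOU1, a chaperone of the endoplasmic reticulum, had 8.43 and 9.71, against 8.79 and 8.79, and SDF2L1 had 5.95 and 7.19, against 6.22 and 6.41. The untransfected arrays had SEL1L at 9.29 and 9.65, close to replicate 2 and above replicate 1. The mean level of the list was 7.41 and 8.12 at 72 h, 7.53 and 7.59 at 24 h, and 8.17 and 8.34 in untransfected cells. The CTCF siRNA arrays of 72 h had 7.39 and 7.22, so the high value was that of a single array among the 4 of 72 h.

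Immediate early and growth factor response genes had a lower mean at 72 h in 19 of the 25 measured of 31 (background 51.2%), with a median of -0.24. Beside ATF3 and JUN, which fell, 7 more genes had an unadjusted p under 0.05 in that direction (background 6.12%). KLF6, a zinc finger factor, had 6.14 and 5.95 at 72 h, against 6.80 and 7.03 at 24 h (-0.87 ± 0.15, adjusted p = 0.0710, limma). FOS had 3.77 and 3.57, against 4.42 and 4.40 (-0.74 ± 0.15). EGR1 had 4.45 and 4.52, against 5.29 and 5.02 (-0.68 ± 0.15), and JUNB had 6.23 and 6.49, against 6.88 and 7.01 (-0.58 ± 0.13). In all 4 both 72 h arrays lay below both 24 h arrays, as they did in 15 of the 25 genes of the list (background 22.0%). DUSP1, a phosphatase that ends MAP kinase signals, had 7.61 and 7.87, against 8.32 and 8.46 (-0.65 ± 0.18), while JUND lay at 0.14 and MYC at 0.14, and DUSP4 at 0.40 was the highest of the list. Without replicate 2 of 72 h the median was -0.34, and without each of the other 3 arrays it lay between -0.25 and -0.21. Of 11 heat shock genes 9 lay below 0 with a median of -0.31 and 0 passed. Both inducible HSP70 genes were among them, HSPA1B at -0.42 ± 0.15 and HSPA1A at -0.38 ± 0.16, and their near-identical sequences leave the 2 values open to shared hybridisation.

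**Figure D3:**
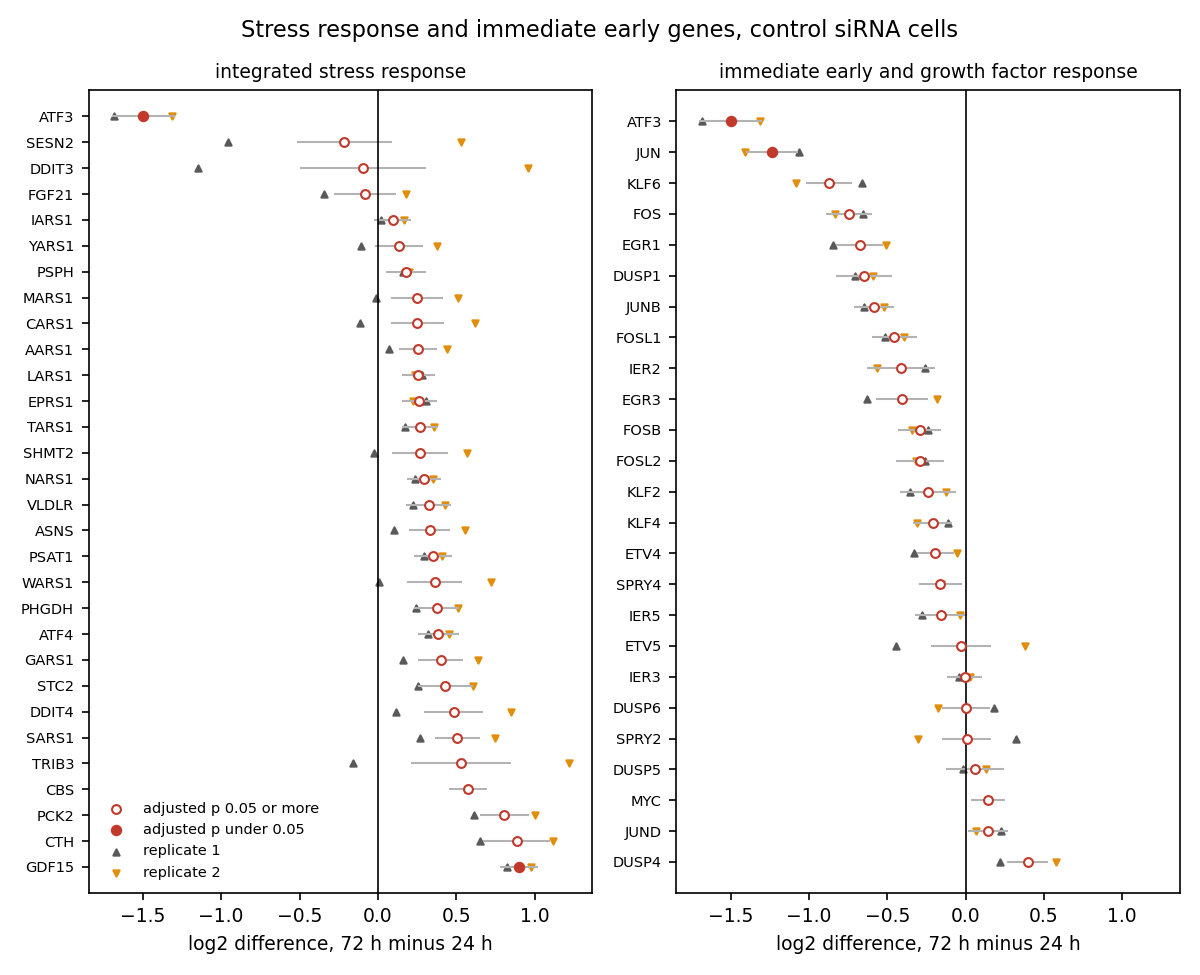
Difference of each integrated stress response gene (left) and each immediate early gene (right) between 72 h and 24 h (log2, horizontal axis), drawn as circles ± SE that are filled where the adjusted p was under 0.05, with the differences within title replicate 1 and 2 as triangles. GDF15 at 0.90, ATF3 at -1.50 and JUN at -1.24 are filled, and the replicate 2 triangles of the stress genes lie mostly to the right of the replicate 1 triangles.

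Several genes induced by low oxygen were higher at 72 h in both replicates without passing the test. Of 21 hypoxia and glycolysis genes 0 passed and 6 higher ones had an unadjusted p under 0.05 (background 6.42%), with a list median of 0.18 (0.14 without replicate 2 of 72 h). INSIG2, BNIP3L, MXI1 and BNIP3 passed with a prior variance that follows the level (background 0.466%). INSIG2, which retains the sterol sensor SCAP in the endoplasmic reticulum, had 8.01 and 8.06 at 72 h, against 7.26 and 7.02 at 24 h (0.89 ± 0.15), and the mitophagy receptors BNIP3L and BNIP3 lay in the same direction. BNIP3L had 10.03 and 10.21, against 9.31 and 9.37 (0.78 ± 0.13), and BNIP3 had 10.24 and 10.22, against 9.74 and 9.71 (0.51 ± 0.11). The adjusted p of INSIG2 and of BNIP3L was 0.0596 by limma. The glycolytic enzymes in the list did not share this, with GAPDH at 0.01, LDHA at 0.09 and GPI at -0.08.

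In the glucose and energy sensing list (15 genes) SESN3 rose and no other gene passed. TXNIP, the thioredoxin-interacting arrestin that follows glucose through the MondoA and ChREBP factors, had the most negative difference of all 16098 probe sets, -2.64 ± 0.94, with an adjusted p of 0.297 by limma. Its levels were 5.24 and 3.46 at 72 h, against 7.18 and 6.80 at 24 h, and a second TXNIP probe set had 2.75 and 2.68, against 4.25 and 3.60 (-1.21 ± 0.43). The paralogue ARRDC4, regulated by the same factors, had 5.71 and 5.22, against 6.75 and 6.52 (-1.17 ± 0.32). TXNIP and ARRDC4 had both 72 h arrays below both 24 h arrays, as had 22.0% of all probe sets. The 144 h arrays had TXNIP at 3.47 and 6.72, and the untransfected arrays at 2.45 and 3.38.

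The androgen response list, of interest in LNCaP cells, had a median of -0.04 over 23 genes. ZBTB10 fell, and no other member passed. FKBP5, a co-chaperone of the androgen receptor and one of its standard targets, had 5.36 and 5.25 at 72 h, against 6.12 and 5.96 at 24 h (-0.73 ± 0.13, adjusted p = 0.0745, limma), whereas KLK3, which codes for prostate-specific antigen, lay at 0.09 and KLK4 at 0.36. The targets therefore had differences of both signs. Interferon-stimulated genes, which double-stranded RNA can induce, had a median of -0.01 over 26 genes with 0 past the test. IFIT2 had the largest difference of that list, with 3.39 and 3.27 at 72 h against 4.18 and 3.70 at 24 h (-0.61 ± 0.13). Among 13 adhesion and junction genes the desmosomal protein DSP had 9.10 and 9.13 at 72 h, against 8.34 and 8.43 at 24 h (0.73 ± 0.14, adjusted p = 0.0984, limma), and 0 passed. The medians of the sterol (-0.04), YAP and TEAD (-0.05), NRF2 (-0.05), cytosolic ribosomal protein (0.06), respiratory chain (0.06), small RNA machinery (0.07), lysosome (0.11), and cohesin and CTCF (-0.15) lists all lay between -0.15 and 0.11, each with 0 genes past the test by limma. Without replicate 2 of 72 h these 8 medians lay between -0.09 and 0.12. Without it the median was -0.06 for the androgen, 0.07 for the interferon, -0.23 for the heat shock and -0.07 for the p53 list, in which 8 of 14 genes then lay below 0. Among these lists the largest single differences were EBP at -0.43, CRIM1 at -0.62, MT1F at 0.51, RPS23 at 0.31, COX8A at -0.35, TLR3 at 0.51, TMEM140 at 0.57 and ESCO2 at -0.42. The other 2 lists, of amino acid transporters and of replication-dependent histones, had no gene among the tested probe sets.

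**Figure D4:**
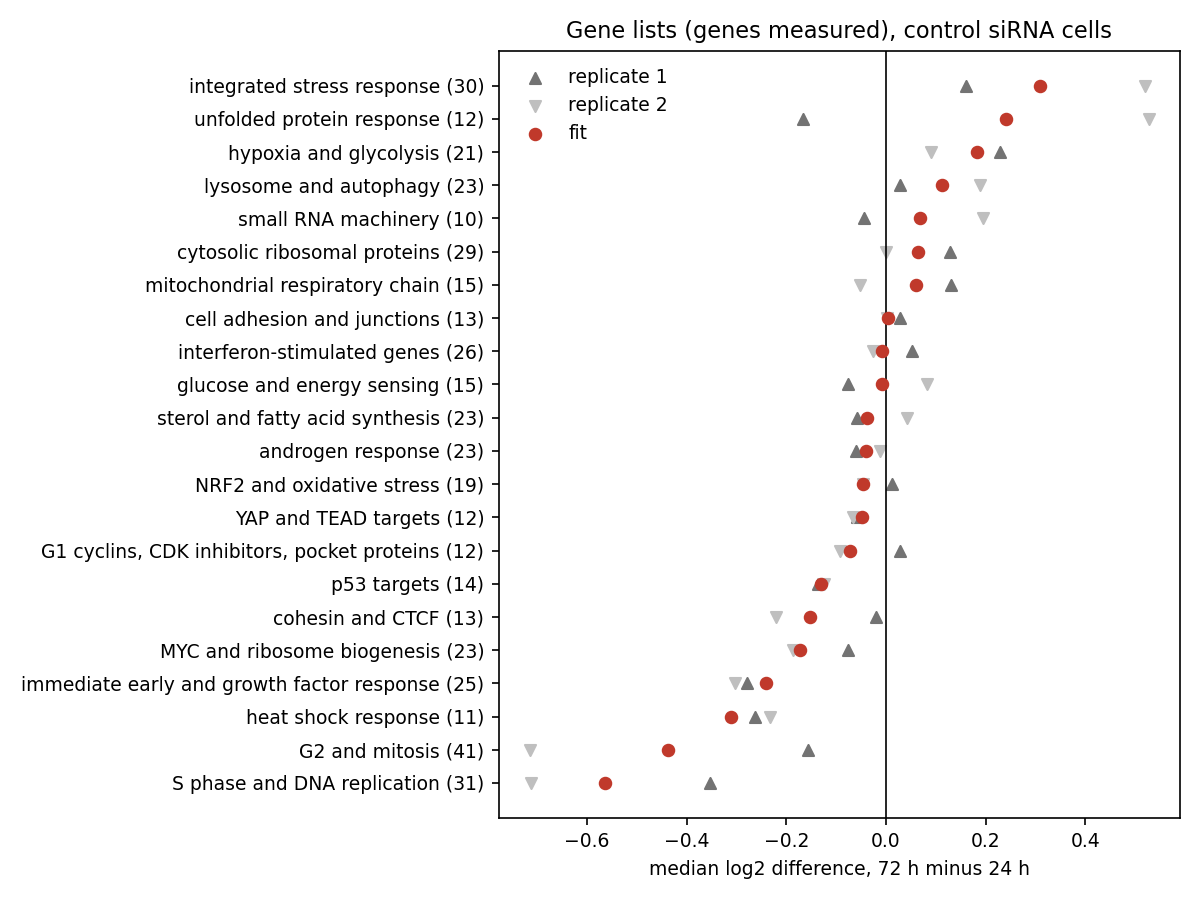
Median difference of each pathway list between 72 h and 24 h (log2, horizontal axis), with the number of genes measured in brackets. The circle is the median of the fitted differences and the triangles those within title replicate 1 and 2. The 2 cell cycle lists lie lowest at -0.56 and -0.44 and the integrated stress response highest at 0.31, with replicates of opposite sign for several lists, the unfolded protein response among them.

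The CTCF siRNA arrays of the same times share no array with the control siRNA comparison, but they carry the same description numbers. All 14 probe sets had the same sign there, as had 62.4% of all probe sets, and 8 of the 14 also passed in that comparison, in which 72 of 16098 probe sets did (0.447%, and 130 without the replicate block). Both comparisons came from the same fit, which shares its estimate of the spread of each probe set between them. The 14 had been called in that fit, so the shares over all probe sets are not a like background. ATF3 had 5.52 and 5.44 at 72 h, against 7.57 and 7.37 at 24 h, and CD24 had 7.60 and 7.14, against 6.39 and 6.71. The S phase list had a median of -0.49 and the G2 and mitosis list one of -0.52, each with all genes below 0. In both lists replicate 2 of CTCF siRNA 72 h tended to lie below replicate 1, as in control siRNA cells. Replicate 2 minus replicate 1 had medians of -0.47 and -0.55, against -0.34 and -0.39 in control siRNA cells. The immediate early list had a median difference of -0.10. The integrated stress response list had a median of 0.13 and the unfolded protein response list one of -0.22. The test of the difference itself passed for 0 probe sets by limma (864 at an unadjusted p under 0.05, 5.37%), and the smallest adjusted p was 0.685 over all probe sets and 0.713 among the 14, that of MIR7-2.

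At 144 h, control siRNA cells were 72 h past the second transfection. For all 14 probe sets both of their arrays were nearer to the 72 h mean than to the 24 h mean. ATF3, for example, had 7.16 and 7.28 at 24 h, 5.47 and 5.97 at 72 h and 5.25 and 5.03 at 144 h. The 14 had been called for their gap between 24 h and 72 h, so the share over all probe sets, 35.5%, is not a like background. The 144 h arrays also carry the description numbers of the 72 h arrays. The cell cycle lists did not follow a single direction over the 3 times. The mean level of the G2 and mitosis list was 7.66 and 7.80 at 24 h, 7.47 and 7.08 at 72 h and 7.70 and 7.54 at 144 h, and in 29 of its 41 genes both 144 h arrays lay above both 72 h arrays (15.4% of all probe sets). The S phase list had 7.25 and 7.24, 6.90 and 6.51, and 6.95 and 6.95 at these times. The integrated stress response list had 7.83 and 7.89, 7.88 and 8.40, and 7.83 and 7.83. The immediate early list had 5.35 and 5.42 at 24 h, 5.00 and 5.10 at 72 h and 5.11 and 5.04 at 144 h, so that both later times lay below the first.

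Untransfected cells lay beyond the 72 h arrays on the cell cycle lists, with mean levels of 5.841 and 6.004 for S phase and 6.34 and 6.60 for G2 and mitosis. In 40 of the 41 mitotic genes both untransfected arrays were below both 72 h arrays (20.6% of all probe sets), and in all 41 they were below both 24 h arrays (25.6%). PLK1 had a mean of 7.96 in these arrays, and MYBL2 one of 6.23. On the integrated stress response list they had 8.47 and 8.53, again beyond replicate 2 of 72 h, and on the immediate early list 5.17 and 5.06. In 8 of the 25 immediate early genes both untransfected arrays were nearer to the 72 h mean than to the 24 h mean (32.0%, against 42.0% of all probe sets). In 13 of these 25 genes both untransfected arrays were below both 24 h arrays (25.6% of all probe sets), and in 1 they were above both. Of the 14 probe sets past the test, 12 had both untransfected arrays nearer to the 72 h mean than to the 24 h mean. The share over all probe sets was 42.0%, which is not a like background, since the 14 had been called for their gap between these times. The untransfected arrays also carry the description numbers of the 72 h arrays.

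**Figure D5:**
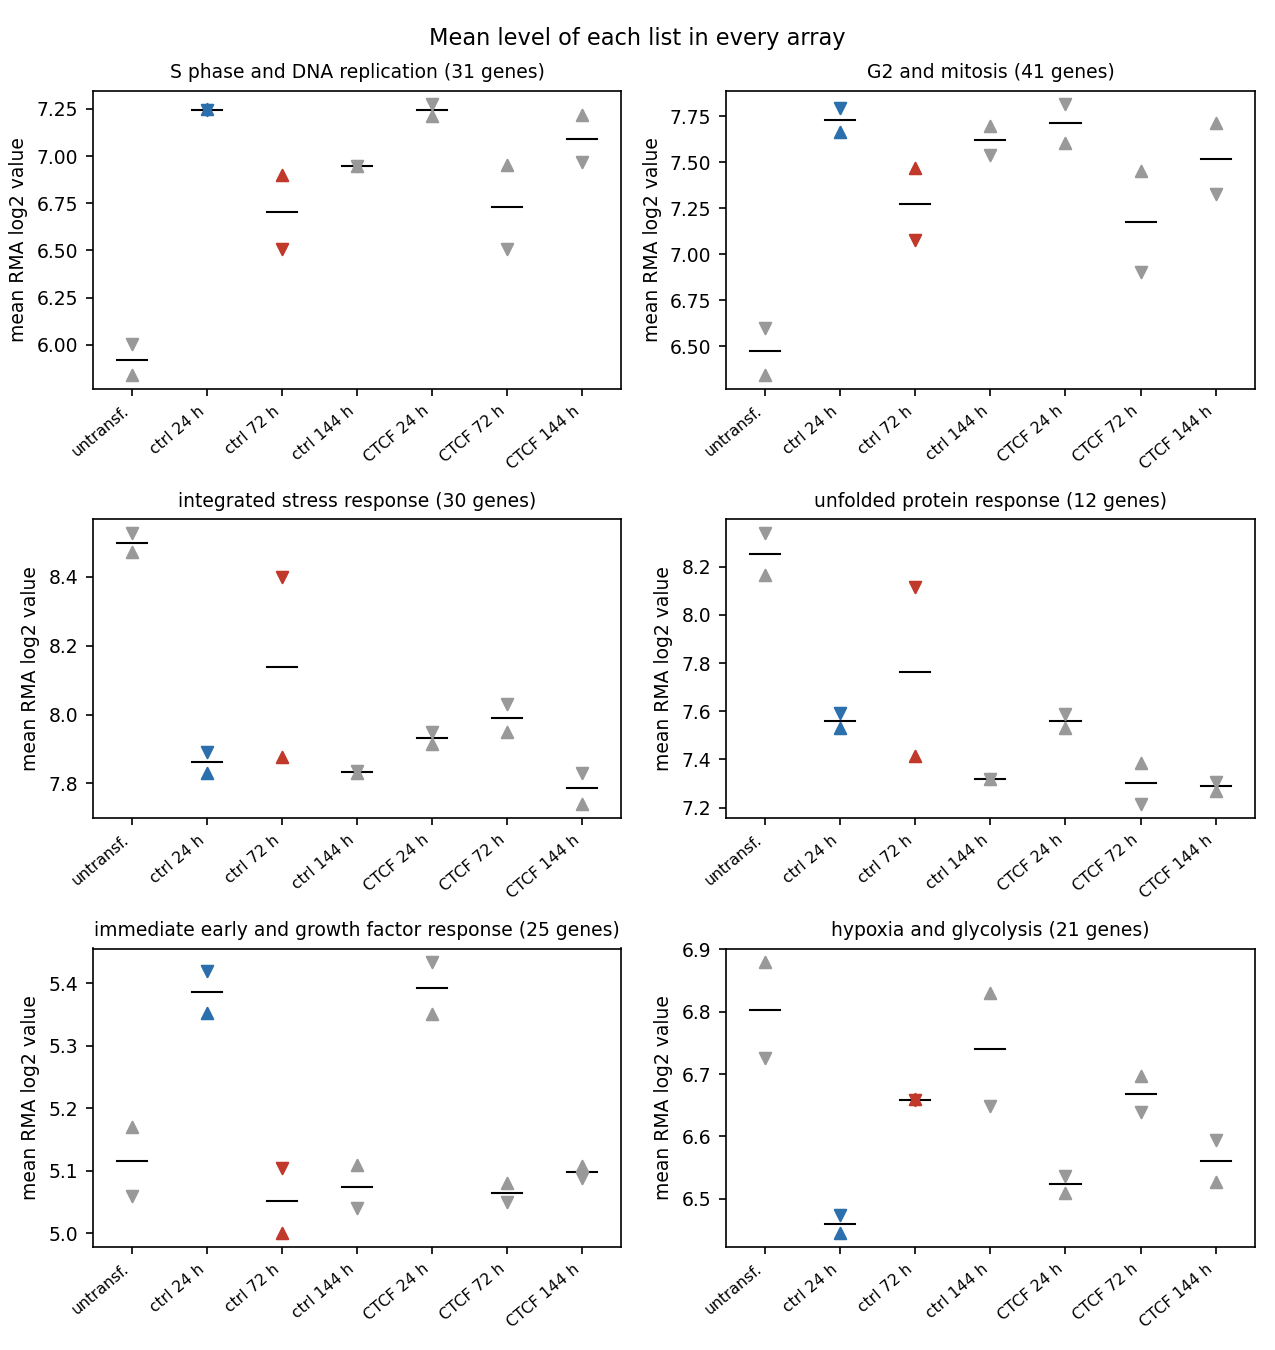
Mean level (RMA log2, vertical axis, which does not start at 0) of 6 gene lists in each of the 14 arrays, with up triangles for replicate 1, down triangles for replicate 2 and a line at the group mean; control siRNA cells are red at 72 h and blue at 24 h. Both cell cycle lists are lower at 72 h than at 24 h and lowest in untransfected cells, the immediate early list is high in the 24 h arrays of both siRNAs, and for both stress lists replicate 2 of control siRNA 72 h lies well above replicate 1.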

How the data were processed

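Total RNA of LNCaP cells was measured on 14 Affymetrix Human Gene 2.0 ST arrays, 2 in each of 7 groups. The authors corrected background, quantile-normalised and summarised the probe intensities by RMA in R 3.2.5 (oligo), and the deposited values are log2 levels of 53617 rows, of which 37519 had no gene symbol in the annotation and 16098 probe sets (14884 symbols) were tested. Limma 3.58.1 in R 4.3.3 was fitted to the 12 siRNA arrays as 6 groups with the replicate number of the title as a block, with Benjamini-Hochberg adjustment over all 16098 probe sets and a threshold of 0.05. The untransfected arrays entered no fit but the alternative on all 14 arrays. SEs are those of the moderated fit. Arrays carry no read depth, so the 2 arrays a group limit the precision; the methods call the replicates biological but do not say whether cultures were separate, and p-values measure the spread between arrays only.

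Named were the 15 probe sets with the largest differences in each direction among those past the threshold with the same sign in both replicate numbers and no overlap between times, small RNAs being counted and not named. Named too were up to 6 members past the threshold of each list, the largest member that did not pass where fewer than 2 passed, CTCF, and the 3 smallest adjusted p values per direction. Other genes named were chosen after their values were seen. The arrays, the 30 gene lists and the tests were chosen with earlier results of these data known. Promoter windows of 250 bases before to 50 after the start and a miRNA sequence came from RefSeq (GRCh38.p14). The fits were tested on simulated data. Alternatives were all 14 arrays, all rows, the 4 arrays alone, other blocks, centring, repeated quantile normalisation, a trended robust prior, dim probe sets (mean under 5) left out, and each array left out.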

Additional observations from a re-analysis of the deposited data

Results flagged for a closer look

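For 2 markers of other cell types, the 72 h arrays lay on opposite sides of the 24 h arrays in control siRNA and CTCF siRNA cells, without overlap in either. KRT14, a basal keratin, had 3.07 and 3.32 at 72 h and 3.33 and 3.45 at 24 h in control siRNA cells, where both 72 h arrays lay below both 24 h arrays, and 3.13 and 3.11 at 72 h and 2.98 and 2.90 at 24 h in CTCF siRNA cells, where they lay above. The CTCF siRNA change minus the control siRNA change was 0.3742 ± 0.38 (SE, adjusted p = 0.974, limma). SYP, the synaptic vesicle protein synaptophysin, had 4.88 and 4.75 at 72 h and 5.21 and 4.99 at 24 h in control siRNA cells, and 5.01 and 4.97 at 72 h and 4.54 and 4.88 at 24 h in CTCF siRNA cells, a difference of changes of 0.5658 ± 0.20 (adjusted p = 0.833, limma). Neither difference passed the test over all probe sets, and both markers had mean levels under the limit for dim probe sets. A second SYP probe set lay the other way in control siRNA cells, with 3.28 and 3.26 at 72 h and 3.06 and 2.81 at 24 h (0.33 ± 0.19).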

How the results depend on the processing

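All 14 probe sets kept their direction when any of the 4 arrays was left out, which their lack of overlap between the times had nearly fixed in advance. The count of 14 became 24 with all 14 arrays in the fit, 166 of 7396 (94 higher, 72 lower) with dim probe sets left out and 116 (75 higher, 41 lower) with a trended robust prior. It became 2 (0 higher, 2 lower, 2115 at an unadjusted p under 0.05) with arrays centred on their medians, 0 over all deposited rows (4661 unadjusted) and 0 with the 4 arrays alone (1862 unadjusted). The trended robust prior called all 14 again, and the fit without dim probe sets called 11, the other 3 being under the limit. Leaving out 1 array gave 0 to 2. Quantile normalisation again gave 15 and the description number as a random block 20. Without the replicate block 18 passed, 13 of the 14 among them. The block follows the methods of the study, which treat the replicates as paired over the times. The replicate deviations of control siRNA 72 h and 24 h correlated at 0.01, and those of control and CTCF siRNA at 0.228 (72 h), 0.04 (24 h) and 0.154 (144 h).

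In CTCF siRNA cells the count of 72 became 130 with the description number as a random block, 130 without the replicate block, 414 with dim probe sets left out, 352 with a trended robust prior, 0 over all rows, and 0 to 49 with 1 array left out. The test of the difference between the siRNAs passed for 0 probe sets in every setting run (388 to 2712 unadjusted). SEL1L lay between -0.26 (adjusted p = 0.705, limma, without replicate 2 of control siRNA 72 h) and 1.31 (without replicate 1) when 1 array was left out, the only sign change among the genes named by the rule. For these genes, settings other than leaving out an array gave 300 unchanged calls, 13 gained and 45 lost, and leaving one out gave 331 unchanged and 160 lost; list medians moved in 19 of the first kind and 27 of the second. The causes were not tested.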

Other observations

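Some gene families that were not lists of their own, and some single genes, were picked after their values were seen, so that their counts carry no test. Metallothioneins, which bind zinc and copper and of which MT1E, MT1F, MT1G, MT1X and MT2A are also in the oxidative stress list, had a median difference of 0.33 over 9 genes, 8 of them above 0 (background 48.8%), and 6 with both 72 h arrays above both 24 h arrays (background 21.9%). Only 4 of the 9 lay above the limit for dim probe sets, so these counts rest in part on dim ones. MT2A had 9.03 and 8.91 at 72 h, against 8.55 and 8.54 at 24 h. The near-identical sequences of the family leave its members open to shared hybridisation. The median in CTCF siRNA cells was 0.43. The TIMM and TOMM genes of mitochondrial protein import had a median of -0.23 over 23 genes, 19 of them below 0 (background 51.2%) and 14 with both 72 h arrays below both 24 h arrays (background 22.0%), and 0 passed by limma (7 lower at an unadjusted p under 0.05). TIMM22, of the inner membrane translocase, had 9.05 and 9.24 at 72 h, against 9.64 and 9.61 at 24 h, and TOMM40, the pore of the outer membrane, had 8.58 and 8.64, against 9.13 and 9.01. Nucleoporin genes had a median of -0.16 over 20 genes, 18 of them below 0 (background 51.2%). Within title replicates 1 and 2 the nucleoporin medians were -0.06 and -0.26. Those of the metallothioneins were 0.18 and 0.36, and those of the TIMM and TOMM genes -0.10 and -0.17. Of 1072 microRNA genes, taken with 1 probe set each, 1 passed, against 0.0870% of all probe sets.

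Several of the largest single differences did not pass the test. DHRS3, a short-chain dehydrogenase that reduces retinaldehyde, had 5.86 and 6.42 at 72 h, against 4.60 and 4.95 at 24 h (adjusted p = 0.0747, limma). SNAI2, the repressor Slug of epithelial-mesenchymal transition, had 5.45 and 4.80 at 72 h, against 6.73 and 6.23 at 24 h. CROT and CRAT, peroxisomal and mitochondrial carnitine acyltransferases, differed by -1.01 and 0.65.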
